A study of Mus musculus with 20 samples.

Results

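B cell genes were followed in lung samples of tumour-bearing mice that had been sorted for CD44+CD8+ T cells. The 7 genes were Cd79a, Cd79b, Ms4a1, Fcer2a, Cr2, Pax5 and Blk, a list chosen by name with earlier results of these data known. All 7 were measured among 17097 genes with an unambiguous probe set. Each gene was read from the probe set of highest mean over all 20 arrays. The lungs carried 4T1 cells, a mouse mammary carcinoma line, and treatment was intranasal. Saline-CTRL (5 arrays) received saline, and SD-101 (6 arrays) received that TLR9 ligand. SD-101+anti-PD-1 (5 arrays) received the ligand with an antibody against PD-1, and SD-101+anti-PD-1+a-CD4 (4 arrays) received a-CD4 as well, named here as in the labels. Strain and age are not given in the sources used here, nor whether the numbered samples of a group were separate animals and the p-values therefore reflect a spread that may be technical.

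B cells recognise antigen through a membrane antibody that signals through a pair of partner proteins encoded by Cd79a and Cd79b. The Src family kinase Blk acts just below that receptor and is also found in some other lymphocytes, among them gamma-delta T cells that make IL-17. Ms4a1 encodes CD20, a membrane protein of mature B cells. Fcer2a encodes CD23, the low-affinity receptor for IgE, and Cr2 encodes the complement receptors CD21 and CD35, which lower the threshold for activation. Pax5 is the transcription factor that holds cells to the B lineage. TLR9, the receptor of SD-101, is itself expressed in mouse B cells.

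The values are log2 hybridisation intensities, which cannot be compared between probe sets as amounts of RNA. The sorted cells' own genes were high: 11 measured T cell identity genes, Cd8a and Cd8b1 among them, had a mean log2 level of 8.37 to 10.32 on single arrays. The lowest of these levels were on SD-101+anti-PD-1+a-CD4 replicate 2 (8.37) and Saline-CTRL replicate 1 (8.83). Lung epithelial genes (7 measured) read high as well, so the samples were not free of signal from other lung cells. Their group means were 10.31 with saline, 10.28 with SD-101, 11.18 with SD-101+anti-PD-1 and 10.72 with SD-101+anti-PD-1+a-CD4. SD-101 replicates 4 and 3 stood apart by the mean log2 level of 5 measured dendritic cell genes, at 6.57 and 5.35, where the other 18 arrays lay between 3.25 and 4.23. Of the other cell marker lists, 12 macrophage and monocyte genes reached a mean of 7.27 on SD-101 replicate 4 and 4.44 to 5.84 elsewhere. The 6 measured neutrophil genes had a mean of 9.81 on Saline-CTRL replicate 1 and 8.79 on SD-101+anti-PD-1+a-CD4 replicate 1. Elsewhere their mean was at most 6.23. These 2 arrays were left out singly but not as a pair. In bulk RNA, more cells of a type and more RNA per cell cannot be told apart.

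The 250 bases upstream of the start site are shown for the gene that passed the test, Fcer2a, and for the receptor subunit gene Cd79a, whose probe set read low (percentile 34.3 of gene means). RefSeq's promoter table (GRCm38.p6) held 4 of the 7 genes, these 2 and Cr2 and Pax5. The Cd79a stretch is chr7:24897247-24897496 on the plus strand, and the Fcer2a stretch is chr8:3694175-3694424 on the minus strand. Capitals mark the ETS core GGAAGT, read on either strand.
Cd79a: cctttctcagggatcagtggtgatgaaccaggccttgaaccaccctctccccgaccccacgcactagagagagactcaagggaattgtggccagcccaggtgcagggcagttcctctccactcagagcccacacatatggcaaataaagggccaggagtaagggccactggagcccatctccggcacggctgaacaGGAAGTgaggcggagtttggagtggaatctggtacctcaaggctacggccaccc
Fcer2a: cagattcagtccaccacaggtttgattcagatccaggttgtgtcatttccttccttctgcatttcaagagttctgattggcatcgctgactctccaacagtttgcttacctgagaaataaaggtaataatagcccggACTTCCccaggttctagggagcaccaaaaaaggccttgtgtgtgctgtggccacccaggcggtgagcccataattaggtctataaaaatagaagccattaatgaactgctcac

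The core lay at positions -54 to -49 of Cd79a and -113 to -108 of Fcer2a, counted back from the start. It also lay once in the Cr2 stretch and nowhere in that of Pax5, and 19.7% of 32851 promoter stretches of that length held it. An EBF motif (TCCC and GGGA with any 2 bases between them, in 0.779% of stretches), the octamer (1.6%), a STAT6 motif (TTC and GAA with any 4 between, 5.85%) and an IRF motif (GAAA repeated after any 2, 2.98%) were searched on both strands. These letters were not in any of the 4 stretches. For Fcer2a only the stretch of its most upstream start was read, and any other start was not searched. The matches describe the letters only.

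The 7 genes ranged from well measured to barely measured. Cd79b and Blk were above their array's median over all probe sets on 20 of 20 arrays, with mean log2 levels of 6.44 and 5.73. Fcer2a (mean 3.91) was above it on 12 arrays, Ms4a1 (3.56) on 6 and Cd79a (3.41) on 4. Cr2 (2.74) and Pax5 (2.86) were above it on 0 of 20 arrays, at percentiles 17.3 and 22.5 of the mean levels of all genes. Differences of Cr2 and Pax5 between groups were therefore read at the bottom of the scale, as were the saline levels of Cd79a, Ms4a1 and Fcer2a, all below their array's median.

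**Figure D1:**
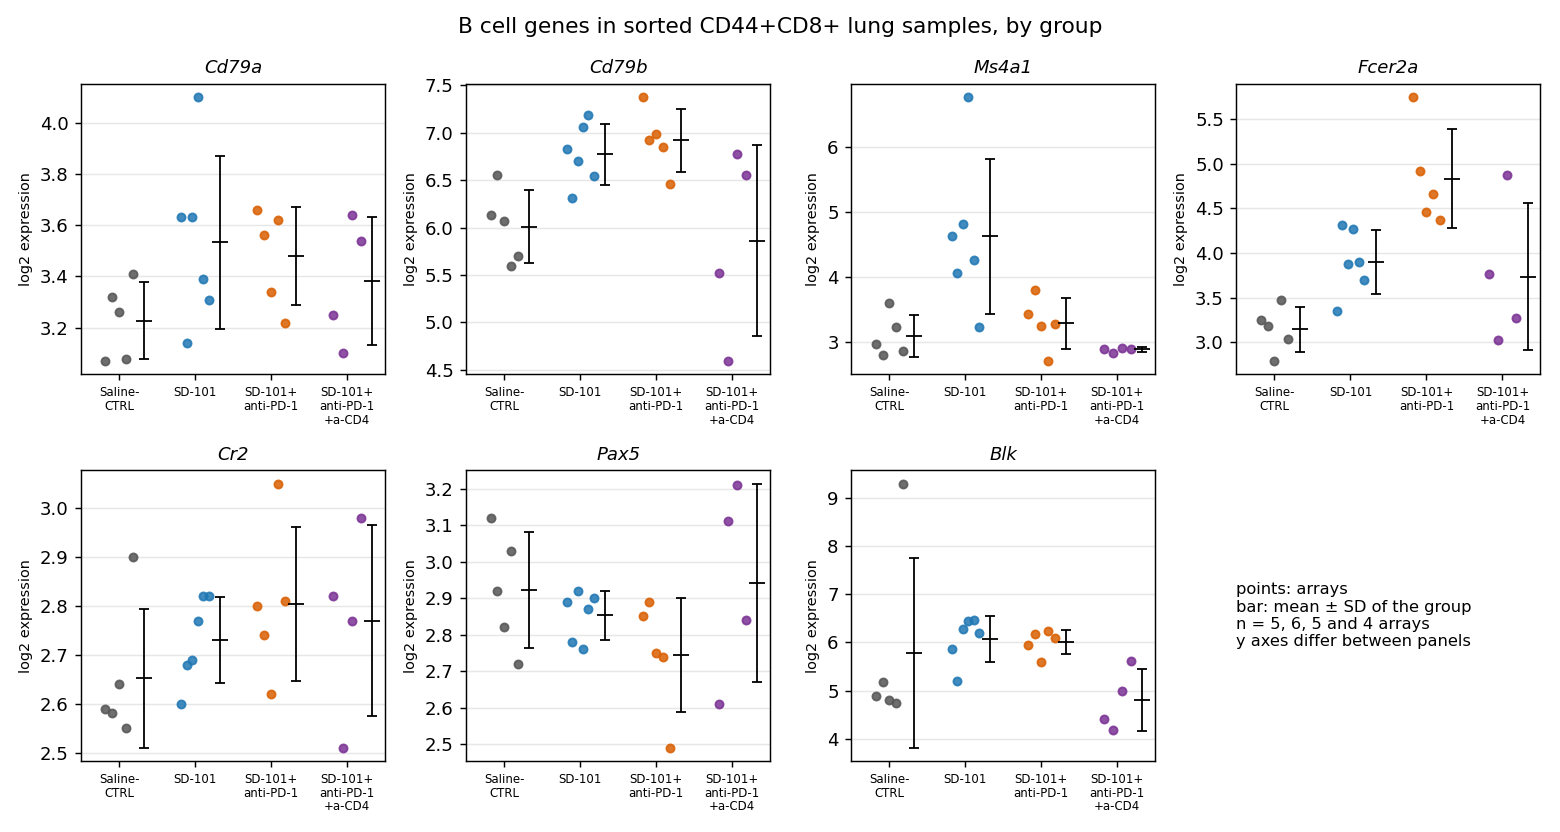
Log2 expression (y axis, scaled per panel) of each of the 7 B cell genes in the 4 groups (x axis); points are arrays, and the bar is the mean ± SD of 5, 6, 5 and 4 arrays. The 5 SD-101+anti-PD-1 arrays of Fcer2a lie between 4.37 and 5.75, above all 5 saline arrays, and 1 saline array of Blk stands at 9.29.

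Of the receptor's signalling pair, Cd79b was higher in the SD-101 and SD-101+anti-PD-1 groups than with saline by less than the test required. Its log2 values were 6.13, 6.56, 6.07, 5.59 and 5.70 with saline. With SD-101 the lowest, median and highest were 6.31, 6.77 and 7.19. With SD-101+anti-PD-1 the values were 7.38, 6.92, 6.99, 6.85 and 6.46. Saline replicate 2 reached into both ranges, and 4 of 6 and 4 of 5 treated arrays lay above every saline array.

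With a-CD4 added, Cd79b values spread widely: 5.52, 4.59, 6.78 and 6.55. The difference from saline was 0.76 for SD-101 (SE 0.31, adjusted p = 0.486, exact permutation p = 0.0108). It was 0.91 for SD-101+anti-PD-1 (SE 0.32, adjusted p = 0.111, exact permutation p = 0.0159) and -0.15 for the triple treatment (SE 0.34, adjusted p = 0.86). Without the 2 arrays of lowest T cell identity level, the SD-101+anti-PD-1 difference was 0.94 and passed (adjusted p = 0.0372). Between SD-101+anti-PD-1 and the triple treatment, Cd79b differed by -1.06 (SE 0.34, adjusted p = 0.105), and the ranges overlapped. Without SD-101+anti-PD-1+a-CD4 replicate 3 this became -1.36 (adjusted p = 0.035), and -0.64 without the 2 arrays of lowest T cell identity level (adjusted p = 0.368). The lowest value, 4.59, was on the array with the lowest T cell identity level.

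Cd79a, the other subunit, moved over a narrow range of 3.07 to 4.10. Its group means ± SD were 3.23 ± 0.15 (n = 5) with saline and 3.53 ± 0.34 (n = 6) with SD-101. They were 3.48 ± 0.19 (n = 5) with anti-PD-1 added and 3.38 ± 0.25 (n = 4) with the triple treatment. No pair of groups differed past the threshold, and the largest difference was 0.31 for SD-101 over saline (SE 0.15, adjusted p = 0.61). Its highest array was SD-101 replicate 4.

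Blk, the kinase, showed 1 array far from the rest. Its saline values were 4.90, 5.19, 4.80, 4.74 and 9.29, the last being replicate 5. With SD-101 the lowest, median and highest were 5.21, 6.23 and 6.47, and with SD-101+anti-PD-1 the values were 5.94, 6.17, 5.60, 6.24 and 6.09. The triple treatment gave 4.42, 4.19, 5.00 and 5.61. Apart from saline replicate 5, every array of the SD-101 and SD-101+anti-PD-1 groups was above the saline arrays.

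With all arrays, Blk differed from saline by 0.29 with SD-101 (SE 0.60, adjusted p = 0.946) and by 0.23 with SD-101+anti-PD-1 (SE 0.63, adjusted p = 0.908). Without saline replicate 5 the differences were 1.17 (adjusted p = 0.0644) and 1.10 (adjusted p = 0.0256), so that the second passed. On that array Blk had the second largest excess over the next highest array of 17097 genes. The largest was of Dntt, terminal deoxynucleotidyl transferase, an enzyme of developing lymphocytes, at 6.93 against 2.34 to 3.28 on the other arrays. The other 6 B cell genes were within the range of the other arrays on saline replicate 5. The difference of the triple treatment in Blk was -1.27 from SD-101 (SE 0.64, adjusted p = 0.326, exact permutation p = 0.0143) and -1.20 from SD-101+anti-PD-1 (SE 0.67, adjusted p = 0.368, exact permutation p = 0.0159).

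Fcer2a, the IgE receptor gene, was the only one of the 7 to pass the test in any of the 6 comparisons, and it rose with SD-101+anti-PD-1. Its log2 values with saline were 3.25, 3.18, 2.79, 3.47 and 3.04. The lowest, median and highest with SD-101 were 3.35, 3.89 and 4.31. With SD-101+anti-PD-1 they were 5.75, 4.92, 4.46, 4.66 and 4.37. The SD-101+anti-PD-1 arrays overlapped neither the saline nor the SD-101 arrays, while 1 of 6 SD-101 arrays reached the saline range.

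The rise of Fcer2a over saline with SD-101+anti-PD-1 was 1.69 on the log2 scale (SE 0.30, 95% interval 1.05 to 2.32, adjusted p = 0.00211). All 5 saline values lay below their array's median, so the level they were compared with may be background and no fold is given. The exact permutation p was 0.00794, the smallest that 5 against 5 arrays can give. With SD-101 alone the difference from saline was 0.76 (SE 0.29, adjusted p = 0.47, exact permutation p = 0.00649). Between SD-101+anti-PD-1 and SD-101 it was 0.93 (SE 0.29, adjusted p = 0.0752, exact permutation p = 0.00216, the smallest possible), which did not pass.

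The triple treatment gave Fcer2a values of 3.77, 3.03, 4.88 and 3.27, of which replicate 3 lay within the SD-101+anti-PD-1 range and the others below it. The difference from SD-101+anti-PD-1 was -1.10 (SE 0.32, adjusted p = 0.0802), and -1.48 without that replicate (adjusted p = 0.0158). It was -0.86 without the 2 arrays of lowest T cell identity level (adjusted p = 0.293) and -0.43 on the gene's other probe set (adjusted p = 0.514). Against saline it was 0.59 (SE 0.32, adjusted p = 0.319).

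Fcer2a had a second probe set, and its rise over saline was also seen there, mostly at the bottom of the scale. That probe set read 2.39 to 2.71 with saline, 2.90 to 3.15 with SD-101, 2.95 to 4.95 with SD-101+anti-PD-1 and 2.69 to 4.02 with the triple treatment. Neither the SD-101 nor the SD-101+anti-PD-1 arrays overlapped the saline arrays. Put in place of the first probe set, it gave a rise of 1.06 for SD-101+anti-PD-1 over saline (adjusted p = 0.0333). Between SD-101+anti-PD-1 and SD-101 the difference there was 0.59 (adjusted p = 0.251), and the ranges overlapped. Among the saline, SD-101 and SD-101+anti-PD-1 arrays, only SD-101+anti-PD-1 replicate 1 (4.95) lay above its array's median on this probe set.

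Markers of lung cells also moved between these groups. All 8 endothelial genes fell with SD-101+anti-PD-1 against saline (median difference -3.42), their mean level being 7.08 to 9.37 on the SD-101 arrays, 5.13 to 6.29 with SD-101+anti-PD-1 and 6.33 to 7.94 with the triple treatment, and 9.21 ± 0.80 (SD, n = 5, highest 10.05) with saline. Of 7 fibroblast genes 3 rose, with mean levels of 5.61 to 7.26 with saline and 7.02 to 7.74 with SD-101+anti-PD-1, and 0 of 7 lung epithelial genes passed (3 unadjusted in limma). Of all genes, 5.63% were called in that comparison and 18.6% had an unadjusted limma p under 0.05. The part of these lung cell markers in the Fcer2a rise was not tested.

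**Figure D2:**
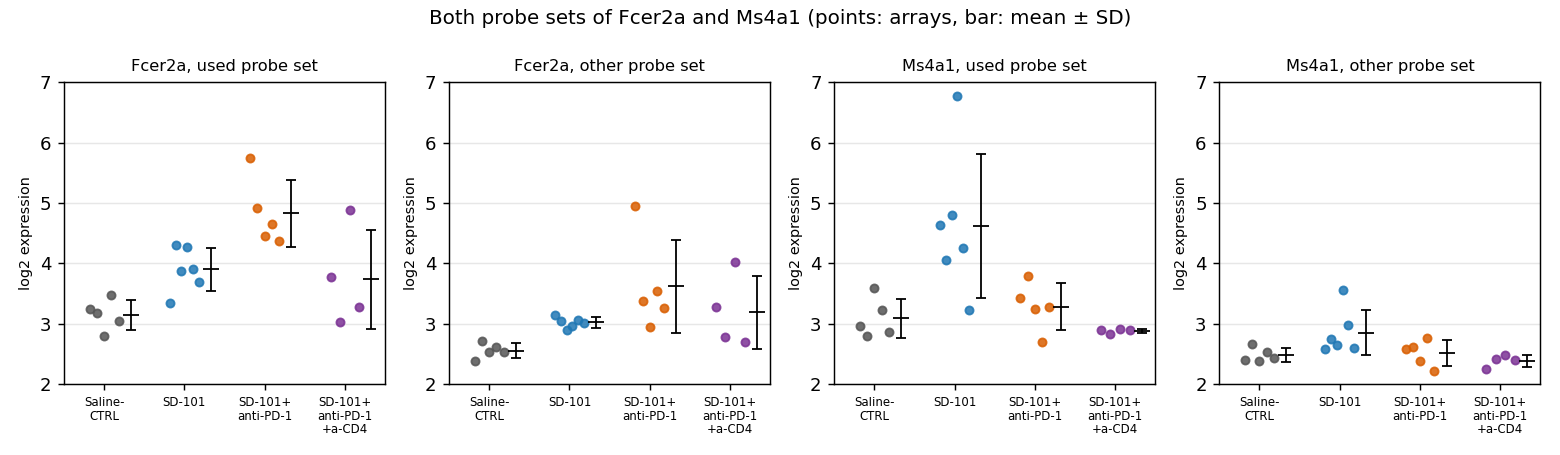
Log2 expression (y axis, common scale) by group (x axis) for the used and the other probe set of Fcer2a and of Ms4a1; points are arrays, bars the mean ± SD. Both Fcer2a probe sets have all SD-101+anti-PD-1 arrays above the saline arrays. The Ms4a1 excess with SD-101 is smaller on the other probe set, which lies near the bottom of the scale.

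Ms4a1, the CD20 gene, had its highest values with SD-101 alone, and the excess was uneven between arrays. The saline values were 2.97, 2.80, 3.59, 3.22 and 2.86. The 6 SD-101 arrays had 4.63, 4.05, 4.81, 6.77, 4.25 and 3.22. With SD-101+anti-PD-1 the values were 3.43, 3.79, 3.24, 2.70 and 3.27, and with the triple treatment 2.89, 2.83, 2.91 and 2.89. Thus 5 of 6 SD-101 arrays lay above every saline array and every SD-101+anti-PD-1 array, and replicate 6 lay among them. No triple treatment array reached the SD-101 range.

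Ms4a1 differed by 1.53 between SD-101 and saline (SE 0.40, adjusted p = 0.162, exact permutation p = 0.013), which did not pass. All 5 saline values lay below their array's median here too. It differed by -1.33 between SD-101+anti-PD-1 and SD-101 (SE 0.40, adjusted p = 0.0663) and by -1.74 between the triple treatment and SD-101 (SE 0.43, adjusted p = 0.0535). Without SD-101 replicate 6 all 3 passed, at 1.81, -1.61 and -2.02 (adjusted p = 0.0426, 0.0194 and 0.0299). Without SD-101 replicate 4 the last was -1.31 and passed (adjusted p = 0.0375), and without the 2 arrays of lowest T cell identity level it was -1.72 (adjusted p = 0.141).

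The 2 SD-101 arrays with the highest Ms4a1, replicates 4 and 3, were those with the highest dendritic cell and macrophage levels. The macrophage and monocyte list ranged from 4.44 to 5.34 with saline, 4.81 to 7.27 with SD-101, 4.78 to 5.13 with SD-101+anti-PD-1 and 4.44 to 5.23 with the triple treatment. The dendritic cell list ranged from 3.25 to 3.62, 3.48 to 6.57, 3.25 to 3.82 and 3.38 to 4.11. None of the 12 and 5 genes passed in SD-101 against saline (4 and 3 unadjusted in limma), and 1 of the 12 fell in SD-101+anti-PD-1 against SD-101. Without these 2 arrays the Ms4a1 difference from saline was 0.95 (adjusted p = 0.278), and -0.75 and -1.16 in the other comparisons (adjusted p = 0.186 and 0.0865). The part of these cell markers in the Ms4a1 values was otherwise not tested. On its other probe set the differences were 0.36, -0.34 and -0.47 (adjusted p = 0.489, 0.222 and 0.142). That probe set was above its array's median only on SD-101 replicate 4, so these differences were read at the bottom of the scale.

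**Figure D3:**
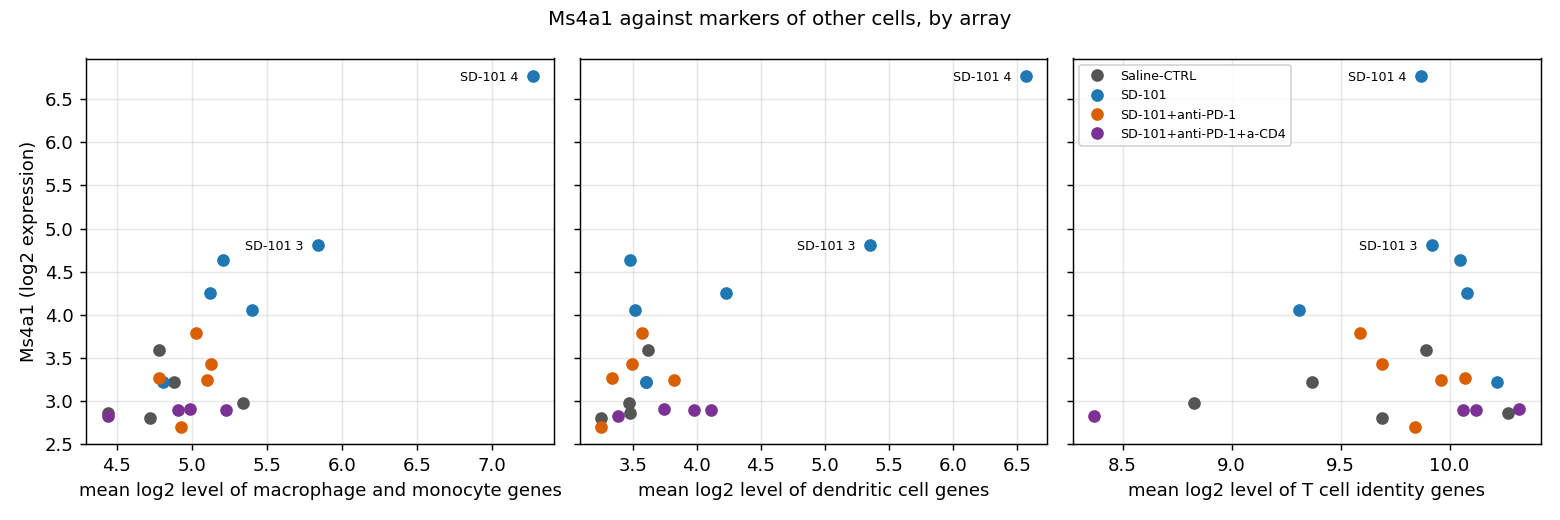
Log2 expression of Ms4a1 (y axis) against the mean log2 level of macrophage and monocyte, dendritic cell and T cell identity genes (x axes); each point is 1 of 20 arrays, coloured by group. SD-101 replicate 4, at 6.77 for Ms4a1, has the highest macrophage (7.27) and dendritic cell (6.57) levels, and its T cell identity level of 9.87 lies within the range of the other arrays.

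Cr2 and Pax5, the complement receptor and the lineage factor, varied little. Cr2 ranged from 2.51 to 3.05 over the 20 arrays, with group means of 2.65 to 2.80, and Pax5 from 2.49 to 3.21, with group means of 2.75 to 2.94. No difference of either passed in the 6 comparisons. The largest were 0.15 for Cr2 (95% interval -0.05 to 0.36, SD-101+anti-PD-1 over saline) and 0.20 for Pax5 (-0.05 to 0.44, triple treatment over SD-101+anti-PD-1). At this level a change in few cells may not be detectable.

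**Figure D4:**
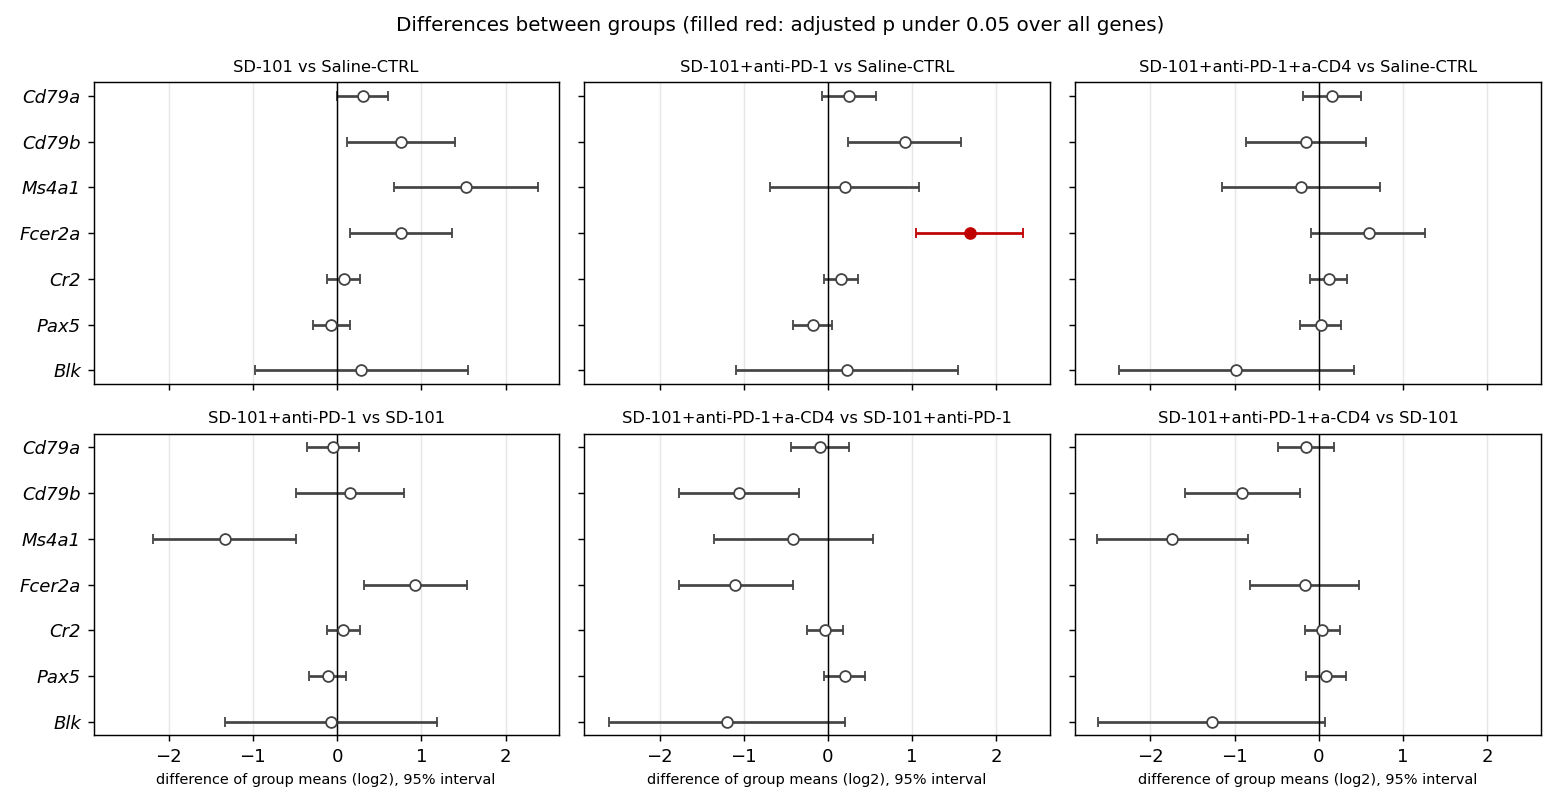
Difference of group means on the log2 scale (x axis, with the 95% interval of the limma fit) for each of the 7 genes (y axis) in the 6 comparisons; filled red marks an adjusted p under 0.05 over all genes. Only Fcer2a in SD-101+anti-PD-1 over saline, at 1.69, is marked.

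Counted over the list, 1 of 42 tests passed in limma, where 11 had an unadjusted p under 0.05, as did 11 by the exact permutation test. Over all genes, the share with an unadjusted limma p under 0.05 was 8.27% in SD-101 and 18.6% in SD-101+anti-PD-1 against saline. It was 20.8% in the triple treatment against saline, 18.3% between SD-101+anti-PD-1 and SD-101, and 17.9% and 16.6% in the triple treatment against SD-101+anti-PD-1 and SD-101. In SD-101 vs Saline-CTRL, 0 of 7 passed (3 at an unadjusted p under 0.05 in limma and 3 by the exact test), where 0.333% of all genes did. The median difference of the 7 was 0.31, against 0.01 for all genes. With SD-101+anti-PD-1 against saline, 1 of 7 rose and 5.63% of all genes were called, with medians of 0.23 and 0.03. With the triple treatment against saline, 0 of 7 passed (0 unadjusted by either test) and 7.12% of all genes were called, with medians of 0.02 and 0.04.

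Between the treated groups no B cell gene passed in limma. Adding anti-PD-1 to SD-101 gave 0 of 7 (the same 2 unadjusted by each test) where 4.77% of all genes were called. The triple treatment against SD-101+anti-PD-1 had 0 of 7 (2 unadjusted by each test) where 2.13% were called, with 6 of 7 differences negative and a median of -0.41. Those 2 were Cd79b and Fcer2a in limma, and Cd79b and Blk by the exact test. Against SD-101 the triple treatment had 0 of 7 (2 unadjusted by each test) where 0.983% were called, with a median of -0.17. Here the 2 were Cd79b and Ms4a1 in limma, and Ms4a1 and Blk by the exact test. Comparisons that have a group in common are not independent of each other.

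The order of group means was not the same for every gene. Ms4a1 was highest with SD-101 (4.62), followed by SD-101+anti-PD-1 (3.29), saline (3.09) and the triple treatment (2.88), and no neighbours in that order passed the test. Fcer2a was highest with SD-101+anti-PD-1 (4.83), followed by SD-101 (3.90), the triple treatment (3.73) and saline (3.15), and no neighbours there passed either. Cd79b and Blk were lowest with the triple treatment (5.86 and 4.81).

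Across the 20 arrays the 7 genes moved together only in part. Of 21 pairs, 14 had a positive Pearson r, and 3 had an adjusted permutation p under 0.05 (Benjamini-Hochberg over 21, 100000 resamples), while 6 pairs passed by Spearman rho. The Cd79a and Cd79b pair had r = 0.66 (permutation p = 0.002, adjusted 0.0271) and Spearman rho = 0.76 (permutation p = 0.0001, adjusted 0.0021). Its r was 0.70 without the 2 arrays farthest from the Cd79a median and 0.62 with group means removed. Cd79b and Fcer2a had r = 0.63 (permutation p = 0.00258, adjusted 0.0271) and rho = 0.67 (permutation p = 0.00147, adjusted 0.0154), with 0.67 without the farthest 2 and 0.47 with group means removed.

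Cd79a and Ms4a1 had r = 0.62 (permutation p = 0.00663, adjusted 0.0464) but rho = 0.30 (permutation p = 0.203, adjusted 0.299). Without the 2 farthest arrays r was 0.24, so this relation rested on those arrays. Blk and Cd79b had r = 0.32 over all arrays (permutation p = 0.167, adjusted 0.27) and rho = 0.58 (permutation p = 0.00724, adjusted 0.0273). Without saline replicate 5 their r was 0.82. It was -0.01 without the 2 arrays farthest from the Cd79b median, with saline replicate 5 kept. With group means removed over all arrays it was 0.11. Pax5 and Cr2 had r = -0.48 (permutation p = 0.0327, adjusted 0.137) and rho = -0.59 (permutation p = 0.00781, adjusted 0.0273), both within their narrow ranges. Without the 2 farthest arrays that r was -0.38. The other pairs to pass by rho were Cd79a with Blk and Cr2 with Blk. Cd79a and Blk had rho = 0.58 (permutation p = 0.00717, adjusted 0.0273) and r = 0.40 (permutation p = 0.0767, adjusted 0.179), with r = 0.37 without the farthest 2. Cr2 and Blk had rho = 0.60 (permutation p = 0.00606, adjusted 0.0273) and r = 0.53 (permutation p = 0.0156, adjusted 0.0817), with r = 0.48 without the farthest 2.

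The genes most like the mean of the 7 across arrays were named by a rule of highest Pearson r over 20 arrays, among 15395 other genes. Pou2af1 was first (r = 0.94), followed by Syvn1 (0.88), Blnk (0.85), Cd83 (0.85), Edem2 (0.85), Ube4a (0.82), Creld2 (0.82), Htt (0.81), Tnfrsf13c (0.81) and Ero1b (0.79). With group means removed r was 0.89 for Pou2af1, 0.85 for Syvn1 and 0.71 for Blnk. These arrays share their samples and normalisation, and r is given as a description. Chosen after the values were seen, the genes most like Ms4a1 alone were Slamf9 (0.93), Hepacam2 (0.91) and Mmp12 (0.91), and the gene most like Fcer2a was Il4i1 (0.91).

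Other B lineage genes were taken from lists by role. Of 13 measured receptor signalling genes, 0 passed in each of the 3 comparisons with saline, and at an unadjusted p under 0.05 there were 2, 1 and 1. Cd22, an inhibitory receptor of B cells, and Blnk, the adaptor that links the receptor to its kinases, had the smallest p in SD-101 over saline (2.07 and 2.04, adjusted p = 0.0707 and 0.0962). Cd22 averaged 4.47 ± 0.53 (SD, n = 5) with saline, 6.55 ± 1.32 (n = 6) with SD-101, 4.63 ± 0.34 (n = 5) with anti-PD-1 added and 4.14 ± 0.38 (n = 4) with the triple treatment.

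Against SD-101, Cd22 fell by 1.91 when anti-PD-1 was added (adjusted p = 0.024) and by 2.41 with the triple treatment (adjusted p = 0.0307). It was 1 of 13 called in each, where 4.77% and 0.983% of all genes were. Both calls ended without SD-101 replicates 3 and 4, at -1.27 and -1.76 (adjusted p = 0.122 and 0.0707). Leaving out single arrays ended them in 4 of 11 and 5 of 10 fits. The highest adjusted p was 0.0694, when SD-101+anti-PD-1 replicate 3 was dropped, and 0.0827, when triple treatment replicate 1 was dropped. The second call also ended, at -2.32 (adjusted p = 0.09), when the 2 arrays of lowest T cell identity level were dropped.

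**Figure D5:**
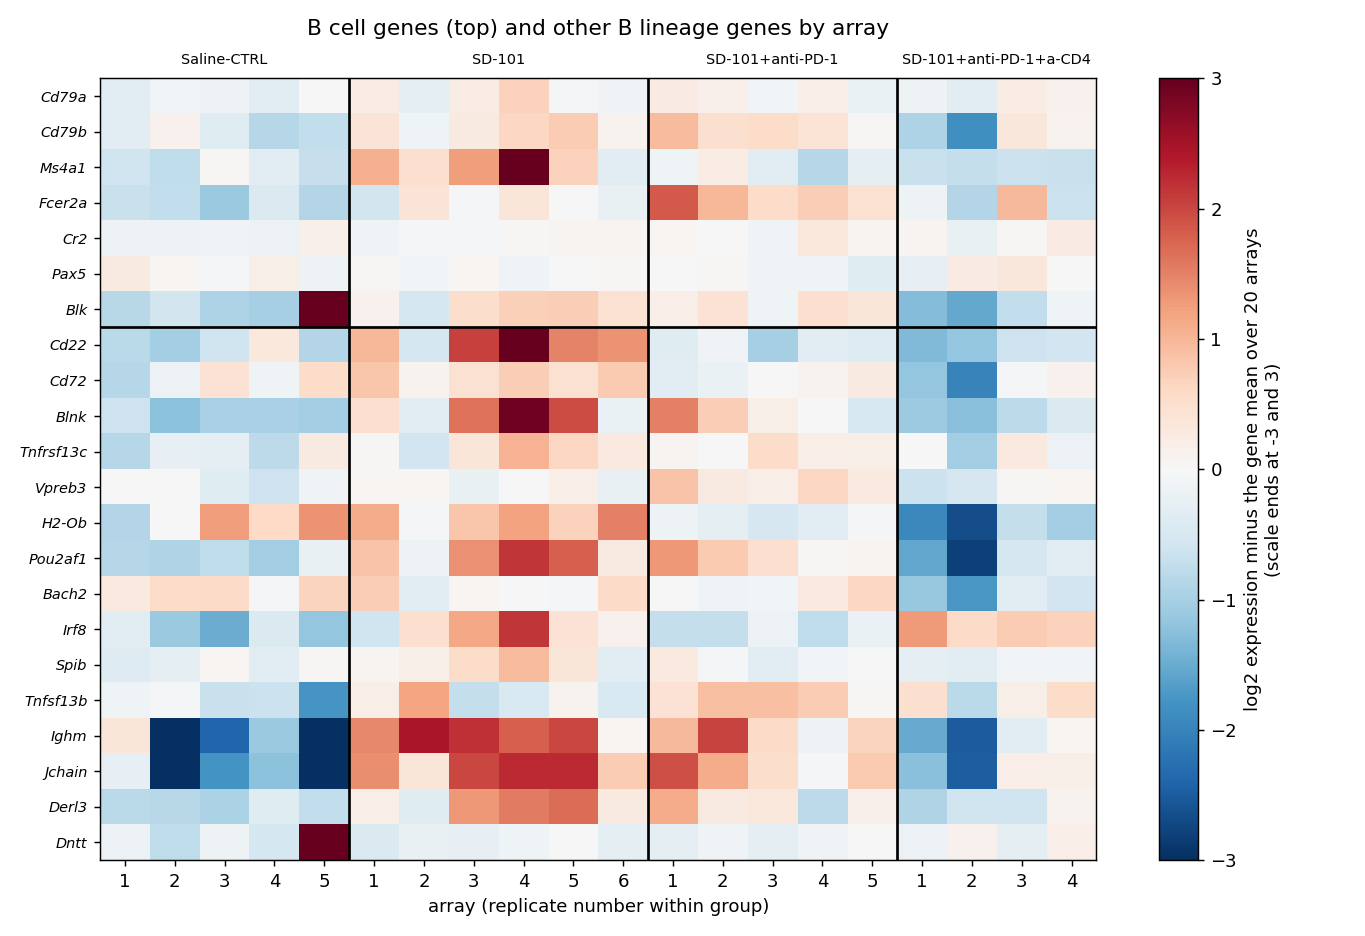
Log2 expression minus the gene's mean over 20 arrays (colour, ends at -3 and 3) for the 7 B cell genes (top rows) and 15 other B lineage genes (lower rows), by array (columns, grouped by treatment). SD-101 replicate 4 is high for Ms4a1, Cd22, Blnk and Pou2af1, and saline replicate 5 for Blk and Dntt.

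Among 14 measured B cell surface genes, Vpreb3, a partner of the antibody chains, rose with SD-101+anti-PD-1 over saline (0.66, adjusted p = 0.0238), 1 of 14 where 5.63% of all genes were called. It fell between SD-101+anti-PD-1 and the triple treatment (-0.72, adjusted p = 0.0431). The calls ended in 4 of 10 and 5 of 9 fits without 1 array, at most reaching 0.0766 when saline replicate 4 was dropped and 0.155 when triple treatment replicate 2 was. The fall was -0.64 (adjusted p = 0.155) without the 2 arrays of lowest T cell identity level. H2-Ob, which modulates peptide loading of MHC class II, fell with the triple treatment against saline (-2.05, adjusted p = 0.00661) and against SD-101 (-2.48, adjusted p = 0.0127), and no single array ended either call. Without SD-101 replicates 3 and 4 the second was -2.42 (adjusted p = 0.0651). Tnfrsf13c, the receptor of the survival factor BAFF, was 0.67 higher with SD-101 than with saline (adjusted p = 0.484).

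Of 11 B lineage transcription factor genes, 1 rose and 1 fell with the triple treatment against saline, and 2 fell against SD-101, where 7.12% and 0.983% of all genes were called. Bach2, which restrains plasma cell differentiation and is also used by T cells, fell by 1.35 against saline (adjusted p = 0.00417), and Irf8, a factor of B and myeloid cells, rose by 1.73 (adjusted p = 0.0104). Pou2af1, a coactivator of octamer-binding factors, fell by 2.35 against SD-101 (adjusted p = 0.0262). Its group means ± SD were 4.60 ± 0.31 (n = 5) with saline, 6.41 ± 0.89 (n = 6) with SD-101, 5.90 ± 0.53 (n = 5) with anti-PD-1 added and 4.06 ± 1.14 (n = 4) with the triple treatment. Without the 2 arrays of lowest T cell identity level the Pou2af1 fall was -1.85 (adjusted p = 0.0786), and dropping SD-101 replicates 3 and 4 gave -1.99 (adjusted p = 0.097). Left out singly, arrays ended it in 3 of 10 fits (highest adjusted p = 0.0735, triple treatment replicate 1 dropped).

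Bach2 also fell against SD-101+anti-PD-1 (-1.08, adjusted p = 0.0403) and SD-101 (-1.11, adjusted p = 0.0419). Those calls ended in 6 of 9 and 8 of 10 fits without 1 array (highest adjusted p = 0.158 and 0.139, triple treatment replicate 2 dropped). Without the 2 arrays of lowest T cell identity level both ended, at -0.82 (adjusted p = 0.172) and -0.85 (adjusted p = 0.14).

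Of 10 genes for survival and homing ligands of B cells, Tnfsf13b, which encodes BAFF, rose with SD-101+anti-PD-1 over saline by 1.26 (adjusted p = 0.0485), and no other gene of the list passed against saline. The call ended in 7 of 10 fits without 1 array (highest adjusted p = 0.127, saline replicate 5 dropped). Cxcl13, the chemokine that draws B cells into follicles, had differences from saline of 2.43, 1.24 and 2.98 in the 3 treated groups (adjusted p = 0.447, 0.54 and 0.0775). None of 7 germinal centre genes or 4 early B lineage genes passed against saline in limma, where 1, 2 and 2 and 1, 0 and 0 had an unadjusted p under 0.05. The early B lineage genes had mean levels of 2.43 to 3.23, and Rgs13, Mybl1, Gcsam and Mef2b of the germinal centre list 2.39 to 3.22. These lay below the lowest array median of 3.52, so changes in these genes may not be detectable.

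Of the antibody-secreting cell lists, 1 gene each passed. Jchain, which joins antibody polymers, was 1 of 8 plasma cell genes to rise with SD-101 (3.49, adjusted p = 0.0145) and with SD-101+anti-PD-1 (2.85, adjusted p = 0.0088), both against saline, where 0.333% and 5.63% of all genes were called. Ighm, the heavy chain of IgM, rose by 3.60 (adjusted p = 0.0172) and 2.76 (adjusted p = 0.0178), 1 of 2 measured immunoglobulin constant genes. The other, Igha, the heavy chain of IgA, had differences of 0.05 (adjusted p = 0.973) and 0.12 (adjusted p = 0.785). Its group means of 3.09 to 3.26 lay below the lowest array median of 3.52, so a change may not be detectable there. The Ighm calls ended in 1 of 11 and 3 of 10 fits without 1 array (highest adjusted p = 0.0545 and 0.0532, saline replicate 3 dropped in both). Saline values of Ighm spread widely, at 6.67, 2.67, 3.92, 5.19 and 3.31. Replicate 1 lay above the lowest SD-101 array (6.35) and the lowest SD-101+anti-PD-1 array (6.15). Saline replicates 2 and 5 lay below their array's median. Without SD-101 replicates 3 and 4 the SD-101 differences were 3.18 for Jchain and 3.43 for Ighm (adjusted p = 0.114 and 0.122). With the triple treatment Jchain (1.15) and Ighm (0.88) did not pass against saline (adjusted p = 0.341 and 0.537).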

How the data were processed

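What the authors deposited is a table of log2 values, 1 per probe set and array, from Affymetrix arrays. Per the submitters' processing notes, affy, RMA and limma were used and mm8 was named, without versions or roles. They were used as given (lowest 1.78, highest 13.44, medians of single arrays 3.52 to 3.75). Arrays carry no read depth, and their number limits the precision.

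Of 45141 probe sets, 28898 had 1 gene symbol in GEO's platform annotation, 551 several and 15692 none. The probe set of highest mean was kept per gene, which gave 17097 genes, and low levels were not filtered out. A fit in limma 3.58.1 (R 4.3.3) took all 4 groups, with group means only. Each of 6 comparisons was tested 2-sided with Benjamini-Hochberg adjustment over all genes, and a gene was called under 0.05. "Rose" and "fell" mark called genes. The fit was tested on simulated data. Exact permutation tests were 2-sided and unadjusted. The members and lists were chosen with earlier results of these data known. From each other B lineage list, up to 4 genes of smallest p per comparison could be named.

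Replicate numbers showed no general pairing of the arrays: deviations of 27 same-numbered pairs correlated at -0.39 to 0.51, above 0.1 in 9. Alternatives changed the probe set, scaling, level filter, variance model, weights, groups fitted, replicate block, test and arrays. Those chosen after seeing the data dropped the pair of arrays lowest for T cell identity or highest for dendritic cells, or used a gene's other probe set.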

Additional observations from a re-analysis of the deposited data

Results flagged for a closer look

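In 28 sets of values (7 genes in 4 groups), 2 had 1 array far from the others of its group by Dixon's ratio, a rule that chance meets in about 1 of 20 sets. Both were on Saline-CTRL replicate 5. Blk stood at 9.29 there, where the next saline array had 5.19. Cr2 stood at 2.90, where the next had 2.64, both near the bottom of the scale.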

How the results depend on the processing

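Of 843 values of the 42 differences under alternatives, 796 kept their direction and their side of the threshold. The rise of Fcer2a with SD-101+anti-PD-1 over saline was called in each limma fit that tested it. The count of 1 there became 0 with genes above the median level only, which left Fcer2a untested, and 0 when exact permutation p-values were adjusted over the 42 tests, a design with few arrangements. It became 2 with array weights, with only the groups compared and without the 2 arrays of lowest T cell identity level (Cd79b joined), and 1 to 2 when single arrays were left out (Blk joined without saline replicate 5). For SD-101+anti-PD-1 against SD-101 the count of 0 became 2 with array weights, 1 with only the groups compared, 1 with a replicate block and 0 to 1 with single arrays left out. For the triple treatment it became 1 with array weights against SD-101+anti-PD-1 (0 to 2 with arrays left out). Against SD-101 it became 1 with array weights, 1 with the replicate block and 0 to 1 with arrays left out. For SD-101 against saline it was 0 to 1 with arrays left out. The cause was not tested. Both calls under the block were of Ms4a1, at -1.61 and -2.10. The numbers showed no general pairing of the samples, and 4 of 20 arrays correlated best with an array of their own number. That check, made over all genes, cannot detect a weak effect of the number or one limited to few genes.

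The 29 values that turned sign belonged to 10 differences, and none was called. For the triple treatment against saline, Cd79b was 0.19 with array weights, 0.30 without the lowest T cell identity arrays and -0.46 to 0.27 with single arrays left out, and Pax5 was -0.04 with weights, -0.02 with the replicate block and -0.07 to 0.13. Against SD-101+anti-PD-1, Cr2 was 0.01 with arrays centred, 0.04 with weights, 0.05 without the lowest T cell identity arrays and -0.10 to 0.05. Against SD-101, Fcer2a was 0.07 without those arrays, 0.17 on the other probe set and -0.55 to 0.07, Cr2 was -0.03 to 0.13, Pax5 was 0.00 with weights, and Cd79a was 0.02 without the highest dendritic cell arrays. For SD-101+anti-PD-1 against SD-101, Cd79a was 0.11 without the dendritic cell arrays and -0.13 to 0.06, and Blk was 0.07 and -0.24 to 0.03. Against saline, Blk was -0.04 to 1.10. The cause was not tested. Array number and low signal of Cr2 and Pax5 limit what can be detected. Counts over all genes moved by more than 1.5 times under several settings. With array weights they were 119, 1953, 2760, 1246 and 603 in place of 57, 962, 816, 364 and 168 (SD-101 and SD-101+anti-PD-1 against saline, SD-101+anti-PD-1 against SD-101, triple treatment against SD-101+anti-PD-1 and against SD-101). With only the groups compared, SD-101 against saline had 10, the triple treatment 476 against saline (1218 in all groups) and 56 against SD-101, and SD-101+anti-PD-1 had 1332 against SD-101. Without the dendritic cell arrays, counts were 6 for SD-101 against saline, 161 for SD-101+anti-PD-1 against SD-101 and 17 for the triple treatment against SD-101. Without the lowest T cell identity arrays, the triple treatment had 62 against SD-101+anti-PD-1 and 51 against SD-101. With genes above the median only, 566, 325 and 149 were called in place of 962, 816 and 364, and with the replicate block 242 in place of 364. With single arrays left out, the counts ran from 25 to 64 for SD-101 against saline, 553 to 1531 for SD-101+anti-PD-1 against saline and 665 to 1234 for the triple treatment against saline. They ran from 317 to 1081 for SD-101+anti-PD-1 against SD-101, 73 to 488 for the triple treatment against SD-101+anti-PD-1 and 35 to 220 against SD-101.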
